A study of Mus musculus with 28 samples.

Results

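The small proline-rich protein (Sprr) family was described across 28 Affymetrix mouse 430 2.0 arrays of Balb/c mouse tissues, either lacking p63 (knockout, KO) or wild type (WT). Members were all genes whose symbol starts with Sprr, which gave 12 symbols on 12 probe sets, set against 13613 genes and 28866 probe sets that passed a filter on low values. Of these symbols 9 had a probe set of their own, namely Sprr1a, Sprr1b, Sprr2d, Sprr2f, Sprr2h, Sprr2i, Sprr2j-ps, Sprr2k and Sprr3, each represented by its probe set of highest mean. The near-identical copies Sprr2a1, Sprr2a2 and Sprr2a3 shared 3 probe sets and are treated here as 1 unit, Sprr2a. RefSeq lists 17 Sprr genes in mouse assembly GRCm38.p6, and Sprr2b, Sprr2c-ps, Sprr2e, Sprr2g and Sprr4 were not analysed here. There were 14 groups of 2 arrays, KO and WT for each of 7 tissues and stages. Bladder was sampled on day 15, 18 and 19 of embryonic life (written E15, E18, E19). The large and small intestine and the distal and proximal stomach were sampled at E18 alone. How p63 was disrupted, where the stomach was cut and how many animals were used were not given in the sources used here, and nothing states that the replicates are separate animals, so p-values measure only the spread between these arrays.

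Sprr proteins are precursors of the cornified envelope, the insoluble protein shell under the membrane of terminally differentiated squamous cells. Transglutaminases cross-link them to loricrin, involucrin and other partners whose genes mostly lie in the same epidermal differentiation complex. The transcription factor p63 is needed for the formation of stratified epithelia. In the mouse the proximal stomach holds the forestomach, with a stratified squamous lining, whereas the distal stomach and the intestine have a simple glandular lining and the bladder has a urothelium.

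The members lie in 1 cluster on chromosome 3. In RefSeq order the Sprr2 genes come first, from Sprr2a1 to Sprr2k, followed by Sprr1b, Sprr3, Sprr1a and Sprr4, with 3 pseudogenes of other names between them. Promoter windows of 300 bases, from 250 before the annotated start to 50 after it, were read from RefSeq GRCm38.p6 for 14 of the 17 genes. The windows shown belong to Sprr2d, Sprr2h and Sprr1b, which were called in opposite directions in proximal stomach and large intestine, to Sprr2k and Sprr2f, which share the Sprr2 layout but not the large intestine pattern, and to Sprr3, which was not called in knockout proximal stomach. They run 5′ to 3′ on the gene's strand. The Sprr2d window is chr3:92338890-92339189 on the plus strand, that of Sprr2h chr3:92385435-92385734 and that of Sprr2k chr3:92432332-92432631, both also on the plus strand. The Sprr2f window is chr3:92364937-92365236 on the plus strand. The Sprr1b window is chr3:92438730-92439029 and that of Sprr3 chr3:92458671-92458970, both on the minus strand. Capitals mark the matches, on either strand, of the TATA box TATAAA, the octamer ATTTGCAT bound by POU factors, and the AP-1 motif TGANTCA bound by Fos and Jun proteins.
Sprr2d: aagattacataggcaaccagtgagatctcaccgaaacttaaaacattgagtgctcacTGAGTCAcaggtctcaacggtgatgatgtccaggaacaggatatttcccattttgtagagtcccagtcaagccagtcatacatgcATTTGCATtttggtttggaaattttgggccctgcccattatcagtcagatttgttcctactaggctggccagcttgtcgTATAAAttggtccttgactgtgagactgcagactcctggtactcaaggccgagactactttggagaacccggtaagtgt
Sprr2h: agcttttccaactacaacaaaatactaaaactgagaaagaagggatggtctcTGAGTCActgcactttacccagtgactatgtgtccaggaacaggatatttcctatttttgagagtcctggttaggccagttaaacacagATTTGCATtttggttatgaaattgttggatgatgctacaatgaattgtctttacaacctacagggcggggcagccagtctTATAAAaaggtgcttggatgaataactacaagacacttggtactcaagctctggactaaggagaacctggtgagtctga
Sprr2k: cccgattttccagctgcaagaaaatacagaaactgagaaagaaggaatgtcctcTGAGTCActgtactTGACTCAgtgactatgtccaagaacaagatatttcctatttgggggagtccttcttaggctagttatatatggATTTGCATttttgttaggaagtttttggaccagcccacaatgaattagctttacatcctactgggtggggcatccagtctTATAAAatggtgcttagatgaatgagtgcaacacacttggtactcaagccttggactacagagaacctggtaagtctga
Sprr2f: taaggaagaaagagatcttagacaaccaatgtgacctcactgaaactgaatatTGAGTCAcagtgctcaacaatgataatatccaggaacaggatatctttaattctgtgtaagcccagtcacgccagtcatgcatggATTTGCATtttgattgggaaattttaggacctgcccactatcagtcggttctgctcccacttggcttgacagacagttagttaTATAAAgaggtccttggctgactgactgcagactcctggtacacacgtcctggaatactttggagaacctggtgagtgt
Sprr1b: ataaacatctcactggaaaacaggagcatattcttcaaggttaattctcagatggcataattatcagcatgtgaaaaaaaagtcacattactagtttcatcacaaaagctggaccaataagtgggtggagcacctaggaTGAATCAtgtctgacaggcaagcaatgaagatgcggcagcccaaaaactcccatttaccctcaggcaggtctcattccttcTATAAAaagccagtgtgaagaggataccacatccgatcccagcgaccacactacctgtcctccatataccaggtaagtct
Sprr3: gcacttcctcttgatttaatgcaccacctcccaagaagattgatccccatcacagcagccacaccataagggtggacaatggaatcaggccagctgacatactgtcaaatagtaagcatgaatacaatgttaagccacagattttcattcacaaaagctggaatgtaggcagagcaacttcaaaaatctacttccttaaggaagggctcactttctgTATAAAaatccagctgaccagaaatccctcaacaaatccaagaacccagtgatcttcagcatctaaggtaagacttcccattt

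The motifs were chosen after the windows had been read, so their matches are a description. The octamer and the AP-1 motif stood together in the windows of Sprr2b, Sprr2d, Sprr2e, Sprr2f, Sprr2h, Sprr2i and Sprr2k, that is in 7 of 14 Sprr windows against 0.198% of all 32851 windows of the same length. In these 7 windows the TATA box began 29 bases before the start, the octamer 108 to 112 bases before it and the first AP-1 match 193 to 198 bases before it. The octamer alone was present in 1.74% of all windows, the AP-1 motif in 7.81% (9 of 14 Sprr windows) and the TATA box in 13.6% (10 of 14). The Sprr1b window held an AP-1 match 111 bases before the start and no octamer, and the Sprr3 window held only the TATA box of the 3 motifs. None of the 3 was matched in the windows of Sprr2a1, Sprr2a2 and Sprr2a3, and Sprr2a1 and Sprr2a2 were identical over the 300 bases. The Sprr2a1 and Sprr2a2 windows end in a stretch whose near match in Sprr2b lies just before the TATA box. The place of that box therefore lay outside the windows read for the Sprr2a copies. CCAAT matched 7 of 14 (37.4% of all). In a global alignment, Sprr2h and Sprr2k shared 81.8% of positions, Sprr2d and Sprr2h 65.8%, Sprr2d and Sprr2f 73.2%, and Sprr1b and Sprr3 58%.

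All values are log2 levels per probe set as the authors deposited them, so a difference of 1 is a factor of 2. Replicate arrays correlated at 0.98 to 0.994 over genes. Array medians were 7.48 to 7.53 in the 4 bladder E19 arrays and 7.73 to 7.86 in all others. The log2 ratio of the 3′ to the 5′ beta-actin control, a sign of RNA quality, was 1.12 and 1.33 in KO bladder E15 and 0.48 to 0.97 on the other arrays. The main probe set of Trp63, the mouse p63 gene, fell by 2.44 in KO bladder E19 (limma adjusted p = 0.000166 over probe sets). The other Trp63 probe sets tested changed there by −0.43 and −0.73 (limma adjusted p = 0.126 and 0.104). The main probe set was not lower in KO proximal stomach, where it read 13.67 and 13.78 against 13.16 and 13.31. The others rose there by 0.91 and 1.63 (limma adjusted p = 0.00113 and 0.000365). Whether any Trp63 probe set lies in the deleted part is not given in the sources used here, so Trp63 does not check the labels. Krt5, a basal keratin known to depend on p63, changed by −5.80 in KO proximal stomach and by −1.24, −4.83 and −5.01 in KO bladder at E15, E18 and E19, all called.

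A difference counts as called where limma's two-sided moderated test, adjusted over all 13613 genes, gave p below 0.05, with 1 model for all 28 arrays. The 3 probe sets of Sprr2a were tested among all 28866 probe sets. All Sprr probe sets passed the filter, but Sprr2h, Sprr2i and Sprr2j-ps exceeded their array's median only in WT proximal stomach, and Sprr1b and Sprr2d on 1 other array. Passing the filter therefore already reflects the WT proximal stomach levels of these 5 genes.

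Wild-type proximal stomach, the stratified tissue of the study, had the highest group mean for 8 of the 10 units, all but Sprr1a and Sprr2f. Sprr1b, a cornifin of squamous cells, read 13.28 and 13.52 there, and no array of another group exceeded 7.98. Sprr2d read 12.90 and 12.61, and no other array exceeded 8.13. Sprr2i read 11.49 and 12.09, and Sprr2j-ps, annotated as a transcribed pseudogene, read 12.77 and 12.70. Sprr2k read 13.70 and 13.96, and Sprr2h differed more between its replicates, with 9.41 and 11.44. Sprr3, an abundant protein of the oesophagus and other wet squamous linings, read 14.50 and 14.70. For these 7 genes both WT proximal stomach arrays lay above every array of the other 13 groups. How many of all genes do so was not counted. Among the 7, Sprr1b, Sprr2d, Sprr2h, Sprr2i and Sprr2j-ps passed the filter through these same arrays, so this order is a description. Probe sets of near-identical Sprr2 copies may share transcripts, so the Sprr2 values cannot be assigned to single genes with certainty.

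Sprr1a and Sprr2a were spread over more tissues in the wild type. Sprr1a, which squamous cells also use as an envelope precursor, read 14.48 and 14.64 in proximal stomach, 14.52 and 14.42 in bladder E18, 13.59 and 13.71 in bladder E15 and 13.995 and 14.074 in bladder E19. It read 12.04 and 12.29 in distal stomach, 7.30 and 7.89 in large intestine and 6.89 and 6.27 in small intestine. Proximal stomach and bladder E18 overlapped in this order, and the wild-type groups below them were separate. On the probe set of highest mean, Sprr2a read 14.36 and 14.43 in proximal stomach, 14.24 and 13.81 in distal stomach and 13.91 and 13.67 in bladder E18. It read 14.18 and 14.25 in bladder E19 against 10.36 and 10.45 in bladder E15, and 10.70 and 10.35 in small intestine. Large intestine was split, with 13.90 on replicate 1 and 11.77 on replicate 2.

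The tests between wild-type tissues followed that division. Against distal stomach, all 9 genes with their own probe set were higher in proximal stomach, where 18.2% of all genes were called higher. The differences ran from 2.32 for Sprr2f and 2.39 for Sprr1a to 8.48 for Sprr1b and 9.23 for Sprr3, with a median of 7.29 for the 9 genes and −0.05 for all genes. Sprr1b, Sprr2d, Sprr2h, Sprr2i and Sprr2j-ps would not have passed the filter without the WT proximal stomach arrays. Higher values in proximal stomach were therefore favoured in advance for these genes, here and against bladder E18. Against bladder E18, 8 of the 9 were higher in proximal stomach (22.4% of all genes), and the exception was Sprr1a at 0.09 (adjusted p = 0.751, 95% confidence interval −0.34 to 0.52). Sprr2f was 1.75 higher there, but 0.76 and no longer called without WT proximal stomach replicate 2 (adjusted p = 0.0736). Distal stomach exceeded small intestine in Sprr1a by 5.58 (standard error, SE, 0.21; adjusted p = 1.24e-14), the only 1 of the 9 genes called there, against 19.5% of all genes called higher. Sprr2a was 3.50 higher in the same comparison (SE 0.41, adjusted p = 8.67e-07), where 17.5% of probe sets were called higher. Small intestine minus large intestine was −1.01 for Sprr1a (23.9% of all genes called lower) and −2.31 for Sprr2a (21.1% of probe sets), and none of the other 8 genes was called lower.

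**Figure D1:**
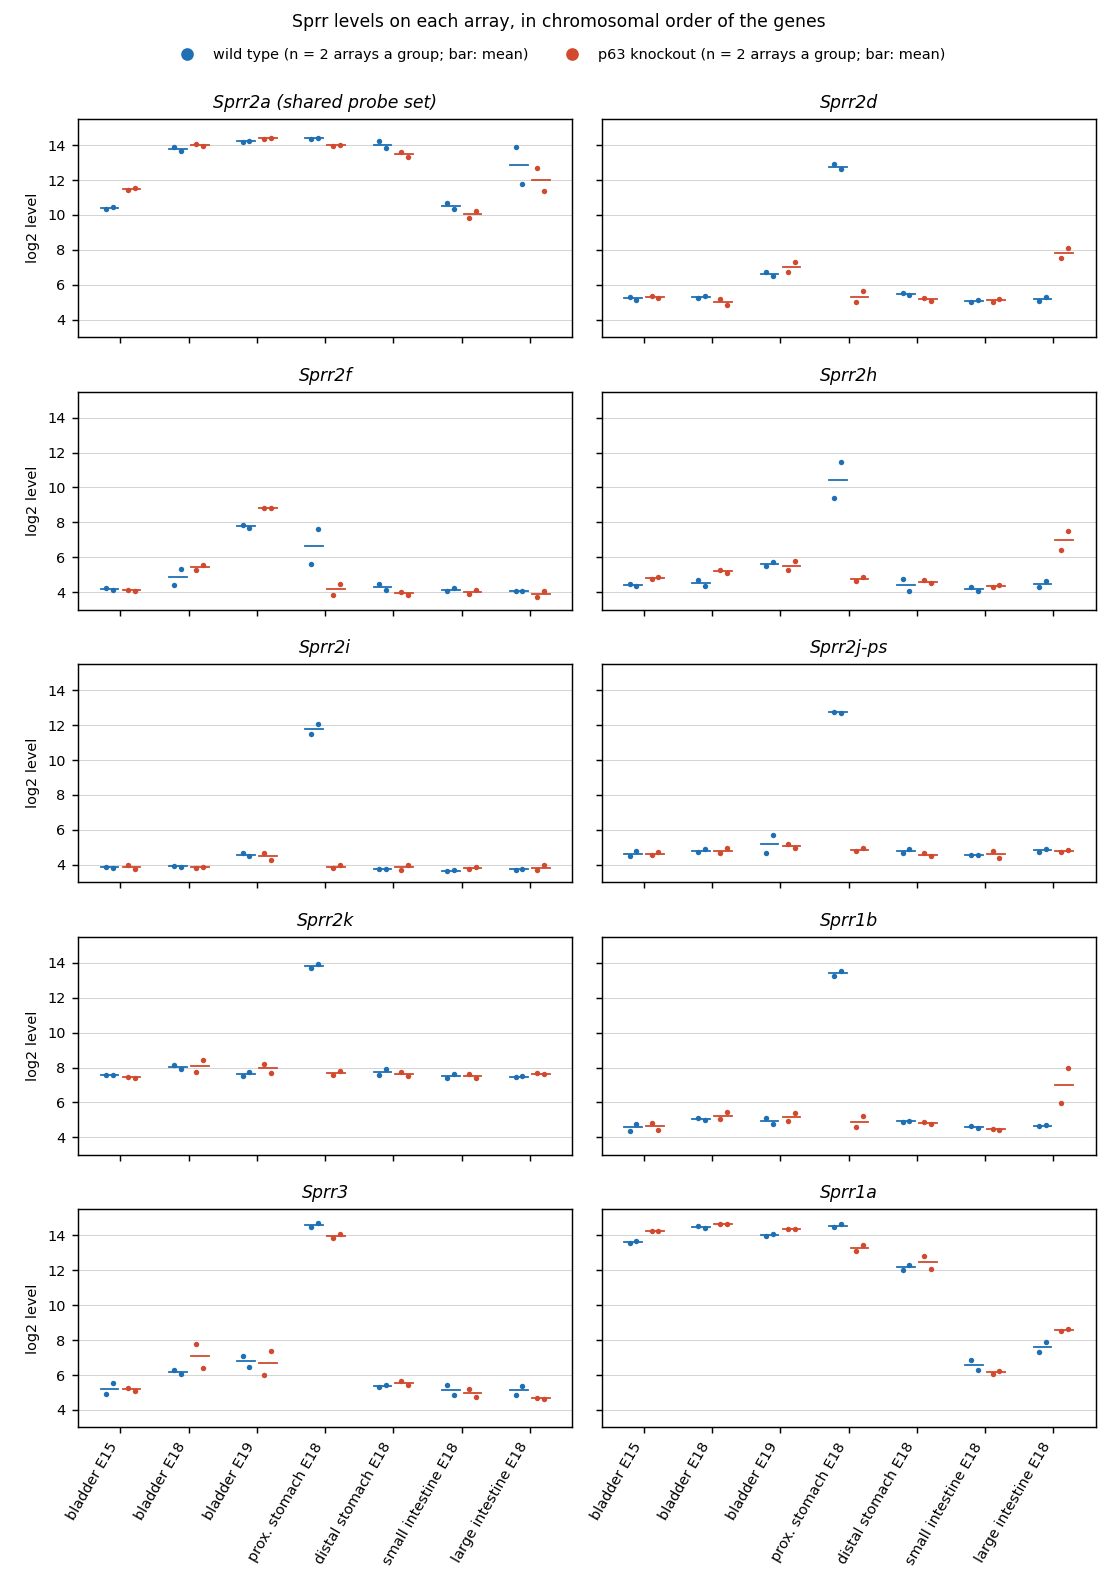
Log2 level of each Sprr unit on each array (points) with the group mean (bars), by tissue and stage, in wild type (blue) and p63 knockout (red); n = 2 arrays a group. The panels of 7 genes show a high wild-type proximal stomach, Sprr1a and Sprr2a are high in several tissues, and Sprr2d, Sprr2h and Sprr1b are raised in knockout large intestine.

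In knockout proximal stomach 8 of the 9 genes fell, at a background of 14.6% of all genes called lower. Sprr1b, Sprr2d, Sprr2h, Sprr2i and Sprr2j-ps would not have passed the filter without the WT proximal stomach arrays. A fall was therefore favoured in advance for these genes, and that share is not a like background for them. Sprr1b fell from 13.28 and 13.52 to 4.57 and 5.20, a change of −8.51 (SE 0.40, adjusted p = 4.75e-13). Sprr2i changed by −7.896 (adjusted p = 2.83e-16) and Sprr2j-ps by −7.86 (adjusted p = 2.24e-15). Sprr2d fell from 12.90 and 12.61 to 4.99 and 5.66, a change of −7.43 (SE 0.25, adjusted p = 2.24e-15). Sprr2k, at 7.55 and 7.83 in the knockout, fell by 6.14, and Sprr2h, at 4.63 and 4.89, fell by 5.67. The knockout levels of these 6 genes overlapped those of distal stomach or small intestine, and also those of WT bladder at E15 or E18. They are therefore not particular to a glandular tissue. All but Sprr2k lay far below their arrays' medians. The bulk arrays cannot separate fewer cells of a type from less RNA per cell.

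Sprr2f and Sprr1a fell less. Sprr2f read 3.86 and 4.48 in the knockout against 5.64 and 7.62, a change of −2.46 (SE 0.41, adjusted p = 7.72e-05). Without WT proximal stomach replicate 2 the change was −1.47 and still called. Sprr1a read 13.12 and 13.44 against 14.48 and 14.64, a change of −1.28 (SE 0.21, adjusted p = 4.92e-05), and so stayed far above its intestinal levels.

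Sprr3 did not pass the test. It read 13.87 and 14.08 in knockout proximal stomach against 14.50 and 14.70 in wild type, a change of −0.62 (95% confidence interval −1.47 to 0.22, adjusted p = 0.26), and the groups did not overlap. With the model limited to these 4 arrays the same change was called (adjusted p = 0.000763). Its knockout level lay above 7.77, the highest value of any array outside proximal stomach. Sprr2a was not called on its main probe set either, with 13.97 and 14.01 against 14.36 and 14.43, a change of −0.41 (adjusted p = 0.509), and it too was called when only these 4 arrays were fitted (adjusted p = 0.00333). The other 2 probe sets gave −0.65 (adjusted p = 0.383) and −1.74 (adjusted p = 0.0726), at a background of 11.7% of probe sets called lower.

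Genes known to work beside Sprr proteins were taken from a list named here cornified envelope partners. The list also holds Smcp, which is not known as an envelope protein. Of its 35 measured genes 31 fell and 1 rose in knockout proximal stomach, with a median change of −5.80 against 0.02 for all genes. A partner can pass the filter through the WT proximal stomach arrays alone, so this count and median may partly reflect the filter. How many partners passed in this way was not counted. The largest falls were in the late envelope proteins Lce3f (−10.09), Lce3a (−9.60), hornerin (Hrnr, −9.44) and filaggrin (Flg, −8.86) and in corneodesmosin (Cdsn, −9.08), an adhesion protein of the cornified layer. Trichohyalin (Tchh), known from the hair follicle, rose by 2.48. The transglutaminases that cross-link Sprr proteins also fell (Tgm1 −2.50, Tgm3 −3.34 and Tgm5 −2.38), as did involucrin (Ivl, −1.998). In a list of regulators of keratinocyte differentiation, 10 of 27 measured genes fell and 6 rose, where 14.6% of all genes were called lower and 18.1% higher, and the median was 0.25. With any 1 of the 4 arrays left out 6 to 10 regulators were called lower and 3 to 4 higher, with 6 and 3 without KO proximal stomach replicate 1 and 10 and 3 without KO replicate 2. Gata3 (−3.82), Cebpa (−2.31), Ovol1 (−1.82) and Cebpb (−1.55) fell most, whereas Fos, an AP-1 subunit, rose by 2.22 and the ETS factor Elf3 by 1.88. The other AP-1 genes Jun, Junb, Jund, Fosb and Fosl2 read 0.29, 0.26, 0.25, 0.80 and −0.04 and were not called.

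Keratins and other markers were read in the same tissue. Krt1 and Krt10, the keratins of cornifying suprabasal cells, changed by −7.11 and −4.005, and the desmoglein Dsg1a by −5.60, all called. Krt4 and Krt13, the keratins of wet, non-cornifying suprabasal layers, read 14.51 and 14.66 and 14.57 and 14.64 in the knockout and changed by −0.04 each (adjusted p = 0.968 and 0.935). Markers of other linings moved at the same time. The summed log2 level of 7 superficial urothelial markers was 14.99 to 15.15 in the knockout and 11.88 to 11.91 in wild type, with Upk2 higher by 5.31. That of 9 gastric gland and surface markers was 13.19 to 13.29 against 9.02 to 9.89, and that of 9 intestinal markers 13.80 to 13.93 against 11.67 to 12.06. Of the intestinal markers, Vil1 (11.2 against 6.31) and Cldn7 (13.47 against 11.115) averaged higher, as did Tff3, Cdh17 and, slightly, Fabp2. Cdx1, Cdx2, Muc2 and Lgals4 averaged lower. Mesothelial markers (4 genes) summed to 14.10 to 14.30 against 12.42 to 12.43, and immune markers (7 genes) to 12.51 to 12.85 against 13.46 to 13.95. Of the mesothelial markers, Msln averaged 13.60 against 10.69 and Upk3b, also a urothelial marker, 12.43 against 11.37. Wt1 (9.28 against 9.72) and Lrrn4 (7.90 against 8.37) averaged lower. Of the immune markers, S100a9 averaged 10.95 against 13.12. Cd68, Csf1r and Cd3e also averaged lower, and S100a8, Lyz2 and Ptprc higher. The 8 basal stratified markers summed to 15.81 to 15.82 against 16.12 to 16.16, and the 10 suprabasal ones to 16.03 to 16.28 against 16.69 to 16.72. Of the 8 basal markers Krt15, the highest of them (15.10 against 14.48), Trp63 (13.72 against 13.24) and Itga6 (12.95 against 12.51) averaged higher in the knockout. Krt5 (8.25 against 14.045), Krt14 (6.96 against 12.50), Col17a1 (6.62 against 11.125), Dsc3 (7.40 against 12.91) and Itgb4 (8.30 against 9.69) averaged lower. The part of these other linings in the Sprr values was not tested.

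**Figure D2:**
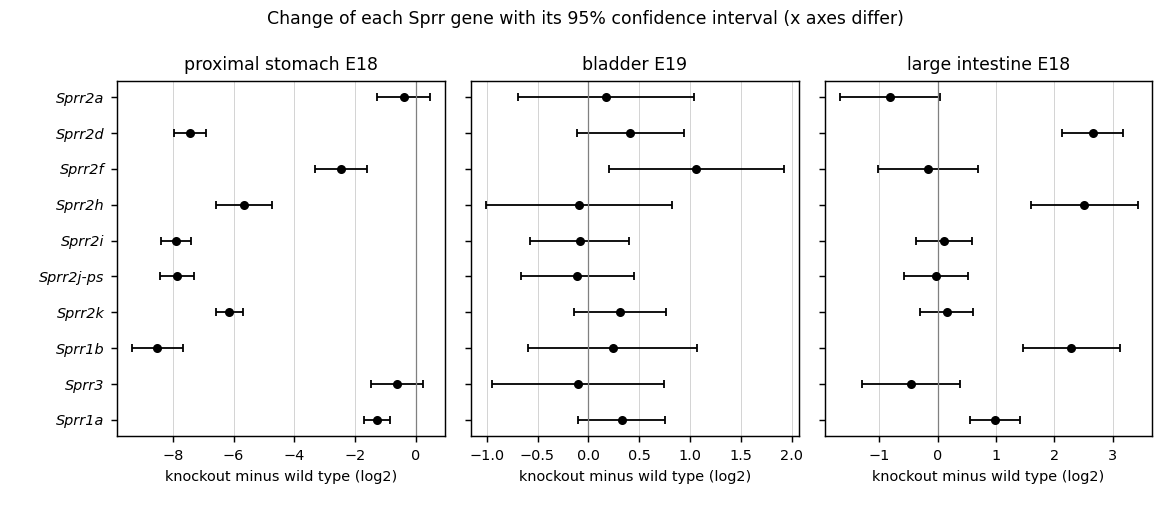
Knockout minus wild type (log2, x axis) of each Sprr unit in chromosomal order (y axis) in proximal stomach E18, bladder E19 and large intestine E18; points are differences of means of 2 arrays and bars are 95% confidence intervals, and the x axes differ. In proximal stomach the values run from −8.51 for Sprr1b to −0.41 for Sprr2a, and in large intestine Sprr2d, Sprr2h and Sprr1b lie between 2.29 and 2.66.

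The bladder gave no Sprr call between genotypes at any stage. At E15 0 of 9 genes were called (7.04% of all genes), at E18 0 of 9 (3.24%) and at E19 0 of 9 (20%), with 1 gene at an unadjusted p under 0.05 at each stage. Sprr1a read 14.26 and 14.24 in KO against 13.59 and 13.71 in WT at E15, a change of 0.60 (95% confidence interval 0.17 to 1.03, adjusted p = 0.0843). Sprr2a read 11.45 and 11.53 against 10.36 and 10.45 at E15, a change of 1.08 (adjusted p = 0.114). Both pairs of groups were separate, and with only the 4 arrays fitted both were called (adjusted p = 0.00673 and 0.0174). These KO E15 arrays are the ones with the highest beta-actin ratio, whose part in the result was not tested beyond the fit with that ratio as a covariate, in which neither was called. Sprr3 read 7.77 and 6.38 in KO bladder E18 against 6.30 and 6.04, a change of 0.90 (adjusted p = 0.287).

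Sprr2f had its own highest group means in bladder E19. It read 7.86 and 7.71 in WT and 8.85 and 8.85 in KO, a difference of 1.06 (95% confidence interval 0.20 to 1.92, adjusted p = 0.074). The groups did not overlap, and the difference was called with array weights (adjusted p = 0.0426) and with only these 4 arrays (adjusted p = 0.00907). At E15 it had read 4.22 and 4.13 in WT and 4.14 and 4.05 in KO. From E18 to E19 it rose by 2.91 in WT (SE 0.41, adjusted p = 3.61e-06) and by 3.42 in KO (SE 0.41, adjusted p = 4.85e-07).

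Calls between bladder stages were made in each genotype. Between E15 and E18 the WT bladder called 1 of 9 genes higher (17.1% of all genes), Sprr1a by 0.82, and Sprr2a rose by 3.39 (SE 0.41, adjusted p = 3.79e-06, 17.6% of probe sets). The KO bladder called 3 of 9 higher in that interval (15.7% of all genes), Sprr3 by 1.90, Sprr2f by 1.33 and Sprr2k by 0.62, and Sprr2a rose by 2.52 (adjusted p = 6.82e-05, 19.8% of probe sets). With the beta-actin ratio as a covariate the KO calls of Sprr3, Sprr2f, Sprr2k and Sprr2a were lost (adjusted p = 0.255, 0.802, 0.711 and 0.235). The changes in that fit were 2.25, 0.64, 0.48 and 2.41. The ratio was highest on the KO bladder E15 arrays, so that fit separates it poorly from the stage. Without KO bladder E18 replicate 2 the Sprr2k change was 0.27 and that of Sprr2f 1.19, neither called (adjusted p = 0.398 and 0.0808). Between E18 and E19 the WT bladder called 4 of 9 higher (27.1% of all genes), Sprr2f, Sprr2d by 1.31, Sprr2h by 1.10 and Sprr2i by 0.67. The KO bladder called 3 of 9 (28.3%), Sprr2f, Sprr2d by 1.98 and Sprr2i by 0.64. Sprr2d read 6.72 and 6.49 in WT and 6.73 and 7.30 in KO at E19, from 5.25 and 5.33 and 5.21 and 4.86 at E18. The rises of Sprr2h and Sprr2i were lost under quantile normalization between arrays (adjusted p = 0.0623 and 0.0687 in WT). The WT call of Sprr2h was also lost with any 1 of its 4 arrays left out (adjusted p = 0.0546 to 0.162). The difference of the knockout effect between bladder stages was not called for any of the 9 genes, with 0 of 9 called for E18 against E15 (0.61% of all genes), 0 of 9 for E19 against E15 (8.59%) and 0 of 9 for E19 against E18 (5.27%).

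Partners and regulators were counted in the bladder as well. At E15 3 of 35 partners rose and 0 fell, where 4.55% of all genes were called higher. They are Evpl (1.54), Rptn (1.40) and Ppl (1.23), all envelope or plaque proteins. At E19 0 partners rose and 3 fell, Ivl (−1.82), Scel (−1.18) and Smcp (−0.88), where 6.5% of all genes were called lower. Of these, Smcp stands in the list but is not known as an envelope protein. Without KO replicate 1 or WT replicate 1 of bladder E19, 1 partner was called lower. Of the regulators, 7 of 27 rose at E15, led by Klf5 (1.25) and Ovol1 (1.19). With 1 array left out the E15 count was 2 to 4, with 2 without WT replicate 1, 3 without KO replicate 2 or WT replicate 2, and 4 without KO replicate 1. The regulator Maf fell at E15 (−0.62), where 2.49% of all genes were called lower. At E18 the partner Evpl rose (0.73) and Scel fell (−1.21). The regulator Prdm1 rose there (0.92), and Cebpa (−1.885) and Nfe2l2 (−0.68) fell. At that stage 1.56% of all genes were called higher and 1.67% lower. At E19 7 regulators rose, where 13.5% of all genes were called higher, among them Fosb (3.26), Fos (1.99), Ovol1 (1.28) and Elf3 (1.25). That count was 3 without KO replicate 1 or WT replicate 2, 2 without KO replicate 2 and 6 without WT replicate 1. The regulators Trp63 (−2.44), Cebpa (−0.57) and Fosl2 (−0.41) fell at E19, where 6.5% of all genes were called lower. The 7 superficial urothelial markers summed in the KO bladder to 15.96 to 15.97 against 15.68 to 15.69 at E19, and the 8 basal stratified markers to 12.06 to 12.19 against 15.04 to 15.05.

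**Figure D3:**
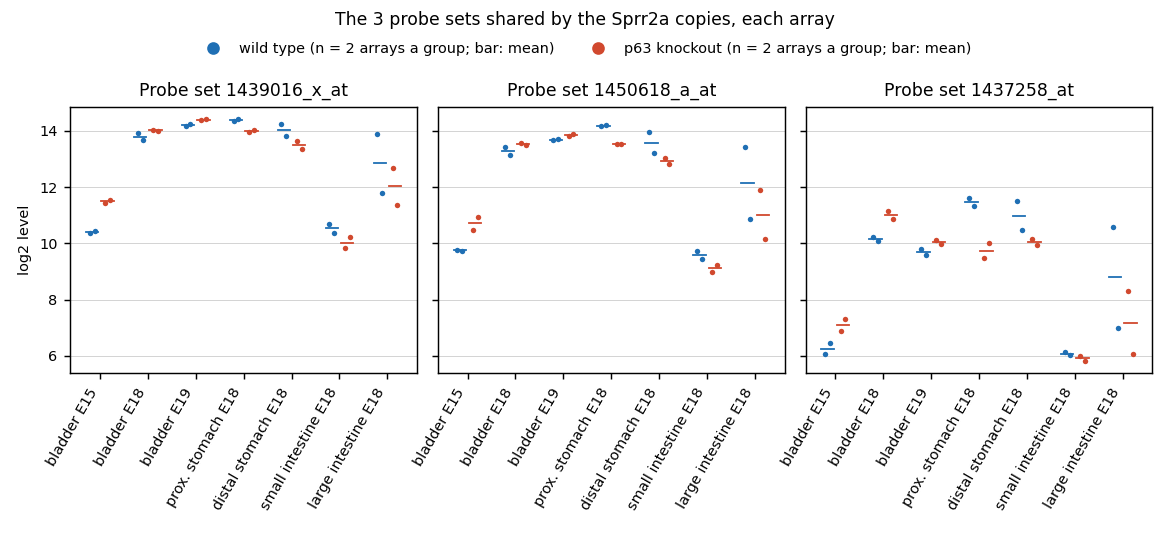
Log2 level of the 3 probe sets that the Sprr2a copies share, on each array (points) with the group mean (bars), in wild type (blue) and knockout (red); n = 2 arrays a group. All 3 rise between bladder E15 and E18 in both genotypes and are low in small intestine, and in large intestine replicate 1 lies above replicate 2 in both genotypes.

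Outside stratified tissue and bladder, 3 Sprr genes rose in knockout large intestine, at a background of 0.0588% of all genes called higher (8 of 13613). Sprr2d read 7.55 and 8.13 in KO against 5.09 and 5.27 in WT, a change of 2.66 (SE 0.25, 95% confidence interval 2.13 to 3.18, adjusted p = 7.68e-06). Sprr2h read 6.42 and 7.51 against 4.27 and 4.64, a change of 2.51 (SE 0.44, adjusted p = 0.0176). Sprr1b read 5.96 and 7.98 against 4.66 and 4.70, a change of 2.29 (SE 0.40, adjusted p = 0.0176). In all 3 both KO arrays lay above both WT arrays, and their KO levels stayed below those of WT proximal stomach. The share of all genes that separate in this way was not counted. Sprr1a read 8.54 and 8.63 against 7.30 and 7.89, a change of 0.99 that was not called (adjusted p = 0.0808).

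The remaining members gave no call in this tissue. Sprr2f, Sprr2i, Sprr2j-ps and Sprr2k changed by −0.17, 0.11, −0.03 and 0.16, all with intervals that span 0. Sprr3 read 4.70 and 4.65 against 4.87 and 5.40, a change of −0.45 (adjusted p = 0.999). Sprr2h and Sprr2k, whose promoter windows share 81.8% of positions, read 2.51 and 0.16 here, and the difference between these genes was not tested.

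The 5 other genes called higher in knockout large intestine also belong to cornification, and were named after their values were seen. They are Lce3f (4.53), Hrnr (3.71), Krtdap (2.97) and loricrin (Lor, 2.85), which stand in the partner list, and Asprv1 (2.99), the protease that processes filaggrin. Of the 35 partners 4 rose and 0 fell, with a median change of 0.37 against −0.02 for all genes, and 0 of 27 regulators were called. The KO replicates differed in most of these genes. Hrnr read 5.997 and 9.209, Krtdap 8.19 and 11.07, Lor 9.20 and 11.23 and Asprv1 7.19 and 9.79 on KO replicates 1 and 2, against 3.84 and 3.95, 6.59 and 6.75, 7.20 and 7.53 and 5.50 and 5.50 in WT. Replicate 2 was the higher of the knockout arrays in all 8 genes, and replicate 1 was still above both WT arrays in each.

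No keratin of stratified epithelium was called in large intestine. Of 11 such keratins on the array the fit held 10, and none of these passed the test, where 0.0882% of all genes were called in either direction. Krt5 read 6.61 and 6.73 in KO against 7.08 and 6.99 in WT, Krt14 6.55 and 6.54 against 8.10 and 7.48, Krt1 5.65 and 5.76 against 5.92 and 5.68, and Krt10 9.47 and 9.30 against 9.20 and 9.26. The keratins above both WT arrays were Krt10, Krt15 (8.30 to 8.74 in KO, 7.997 to 8.054 in WT), Krt6a (6.48 to 6.76, 5.87 to 6.37), Krt16 (5.23 to 6.23, 4.78 to 5.15) and Krt78 (7.93 to 8.29, 7.64 to 7.76), with Krt16 outside the fit. Krt5, Krt14 and Krt13 lay below both WT arrays, and Krt1, Krt4 and Krt6b overlapped. How often all genes separate in this way was not counted, so these orders are a description. Dsc3, a desmosomal cadherin of stratified epithelium, fell by 2.82 (adjusted p = 7.68e-06). The summed level of the 8 basal stratified markers was 12.38 to 12.81 in KO and 12.63 to 12.94 in WT, that of the 10 suprabasal ones 12.45 to 12.63 against 12.56 to 12.74, and that of the 6 skin and hair markers 11.41 to 11.42 against 11.32 to 11.33. Each of these sums rests mainly on a single gene. These genes are Itga6 (mean 12.32 in KO against 12.44 in WT), Dsc2 (12.18 against 12.38) and Trps1 (11.34 against 11.25). The sums therefore say little about the other markers in each list. The 39 partners on the array, 4 of which did not pass the filter, summed to 12.37 and 13.67 in KO and to 11.86 and 12.09 in WT. Intestinal markers (9 genes) summed to 16.27 to 16.35 against 16.34 to 16.58. The Trp63 main probe set read 5.99 and 7.51 in KO against 6.44 and 6.36, with the higher value on replicate 2, and its part in the result was not tested.

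The large intestine calls rest on few arrays. Without KO large intestine replicate 2, Sprr1b changed by 1.28 and Sprr2h by 1.97, neither called (adjusted p = 0.263 and 0.393), and both calls were also lost without WT replicate 1 (adjusted p = 0.192 and 0.249). Sprr2d was called with each of the 4 arrays left out in turn. The 4 partners called higher became 7 without KO replicate 1, 3 without KO replicate 2, 1 without WT replicate 1 and 5 without WT replicate 2, and the 12 genes called in all became 58, 12, 4 and 121. With the model limited to the 4 large intestine arrays no Sprr gene was called (adjusted p = 0.745 for Sprr2d and 0.999 for Sprr1b and Sprr2h), and without WT replicate 2 Sprr1a was called as well, at 1.29 (adjusted p = 0.00552).

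**Figure D4:**
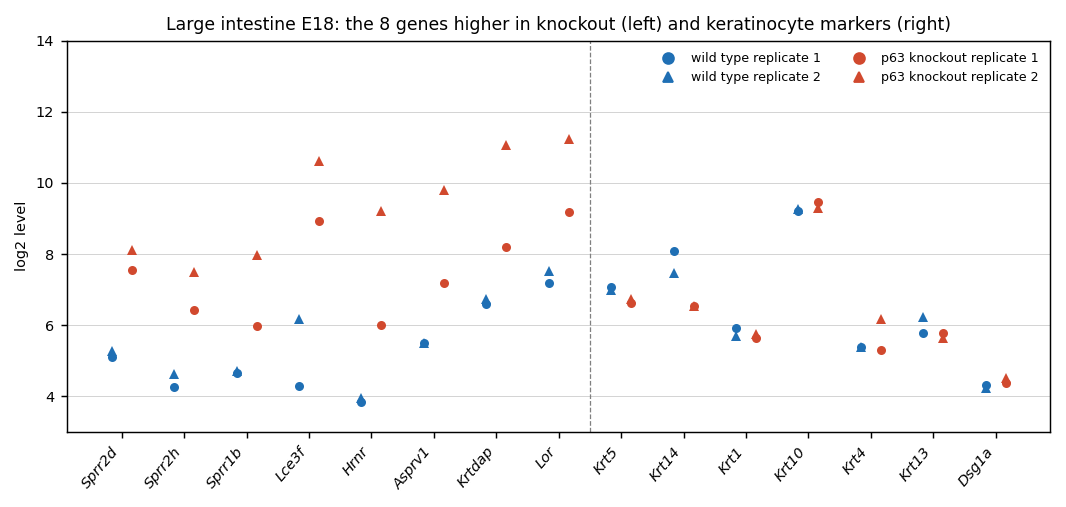
Log2 level of the 8 genes called higher in knockout large intestine (left of the dashed line) and of 7 keratinocyte markers (right) on the 2 wild-type arrays (blue) and the 2 knockout arrays (red); circles are replicate 1 and triangles replicate 2. In the 8 genes both knockout arrays lie above both wild-type arrays, whereas Krt5, Krt14 and Krt13 lie lower on both knockout arrays and Krt10 lies slightly higher.

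Sprr2a did not follow Sprr2d in large intestine. On its main probe set it read 12.67 and 11.38 in KO against 13.90 and 11.77 in WT, a change of −0.82 (95% confidence interval −1.68 to 0.05), and replicate 1 was the higher in both genotypes. The goblet cell mucin Muc2 was also higher on replicate 1 of both genotypes, with 12.78 and 11.15 in KO and 13.738 and 12.003 in WT. Other intestinal markers were not all split in this way. Tff3 ran from 14.47 to 14.60 in KO and from 14.48 to 14.73 in WT, and Lgals4 from 14.03 to 14.16 and from 14.03 to 14.10. Whether Muc2 and Sprr2a are linked was not tested. Without WT replicate 2 the Sprr2a change was −1.88 and called (adjusted p = 0.00324), and without WT replicate 1 it was 0.25 and not called.

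Distal stomach and small intestine gave no Sprr call. In distal stomach 0 of 9 genes were called, where 0% of all genes were called by limma and 528 had an unadjusted p under 0.05. The changes of the 9 genes ran from −0.39 for Sprr2f to 0.31 for Sprr1a. In small intestine 0 of 9 were called, where again 0% of all genes were called and 626 had an unadjusted p under 0.05. The changes of the 9 genes there ran from −0.43 for Sprr1a (unadjusted p = 0.0488) to 0.18 for Sprr2h. On its main probe set Sprr2a averaged 13.49 in KO against 14.03 in WT distal stomach, and 10.03 against 10.53 in small intestine. Its lowest probe set averaged 10.05 against 10.98 in distal stomach. No probe set was called in either tissue. Sprr2d, which rose in large intestine, changed by −0.30 in distal stomach (95% confidence interval −0.82 to 0.23) and by 0.06 in small intestine (−0.46 to 0.59). Whether the large intestine change differs from these was not tested.

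The knockout effect in proximal stomach was tested directly against that in the other tissues. In each of the 6 tests 8 of the 9 genes had a lower effect in proximal stomach, all but Sprr3. The share of all genes called lower was 15.3% against bladder E15, 10.4% against bladder E18, 17.5% against bladder E19, 8.93% against distal stomach, 11.5% against small intestine and 8.62% against large intestine. Sprr1b, Sprr2d, Sprr2h, Sprr2i and Sprr2j-ps would not have passed the filter without the WT proximal stomach arrays. A lower effect was therefore favoured in advance for these genes, and the shares are not a like background for them. The widest gap was to large intestine, with −10.81 for Sprr1b (SE 0.57, adjusted p = 7.93e-12), −10.09 for Sprr2d (SE 0.36, adjusted p = 3.27e-14) and −8.18 for Sprr2h (SE 0.62, adjusted p = 2.65e-09). The smallest called difference was that of Sprr1a against small intestine at −0.85 (adjusted p = 0.0405), which was lost in 9 of its alternatives. Sprr2f against distal stomach (−2.07, adjusted p = 0.0146) was lost in 4, and was −1.08 without WT proximal stomach replicate 2 (adjusted p = 0.0905). It was also lost against bladder E15 with the beta-actin covariate (−3.22, from −2.38 without it, adjusted p = 0.249). Against large intestine it was lost with only the arrays compared (adjusted p = 0.0838). The comparisons share the proximal stomach arrays.

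**Figure D5:**
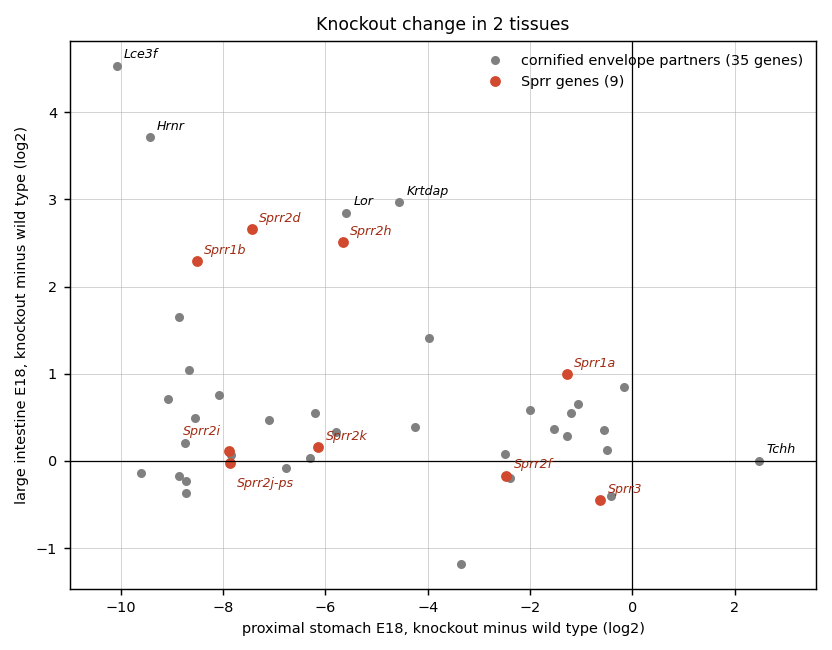
Knockout minus wild type (log2) in proximal stomach E18 (x axis) and large intestine E18 (y axis) for the 9 Sprr genes (red) and 35 cornified envelope partners (grey); each point is 1 gene and a difference of means of 2 arrays. Sprr1b, Sprr2d, Sprr2h and the partners Lce3f, Hrnr, Krtdap and Lor lie at upper left, lower in 1 tissue and higher in the other, while Sprr2i, Sprr2j-ps and Sprr2k lie at left near 0.

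Members differed in how they varied over the 14 group means, given here as a description of points that share arrays and, in most cases, the high value of WT proximal stomach. Sprr1b, Sprr2d, Sprr2h, Sprr2i, Sprr2j-ps and Sprr2k correlated at 0.90 to 0.997 with each other. Sprr3 correlated with these 6 at 0.60 to 0.71, Sprr2f at 0.29 to 0.46 and Sprr1a at 0.22 to 0.30. The genes outside the family with the most like pattern were Aox4 (Pearson r = 0.99 over 14 groups) and Lce1a1 (0.99) for Sprr1b and Calm4 (0.991) and Lce3f (0.982) for Sprr2d. Calm4 (0.985) and Lce3f (0.972) also came first for Sprr2h. They were Lce1b (0.998) for Sprr2i, Serpinb3a (0.998) for Sprr2j-ps, Defb4 (0.998) for Sprr2k, Cnfn (0.987) for Sprr3, Nfe2l3 (0.979) for Sprr1a and Rab40b (0.975) for Sprr2f.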

How the data were processed

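Gene expression was measured on 28 arrays, 2 in each of 14 groups. The authors deposited log2 values per probe set, made with Affymetrix Expression Console and Partek per the submitters' processing notes. The normalization and background steps were not given in the sources used here. RNA was labelled with a 3′ in vitro transcription kit, per the labels' protocols.

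Of 45037 probe sets, after 64 controls were left out, 28866 exceeded their array's median on at least 2 arrays. The single-symbol probe set of highest mean stood for each of 13613 genes. Group means were fitted in limma 3.58.1 (R 4.3.3, trended variance, 14 residual degrees of freedom) with 24 contrasts and Benjamini-Hochberg adjustment, and intervals are 95%. The fit was tested on simulated data. Summed marker levels are log2 sums of linear values. Named genes are all Sprr members, the genes of largest called change in each list and the genes of highest correlation, and other large intestine genes were named after their values were seen. The members and lists were chosen with earlier results of these data known. The number of arrays limits the precision.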

Additional observations from a re-analysis of the deposited data

Results flagged for a closer look

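The knockout effect on 8 Sprr genes differed between proximal stomach and bladder E15, by the interaction term of the limma model, and 8 genes did so against each of bladder E18, bladder E19, distal stomach, small intestine and large intestine. The differences against large intestine were −10.81 for Sprr1b, −10.09 for Sprr2d and −8.18 for Sprr2h, genes that fell in knockout proximal stomach and rose in knockout large intestine. The limit set by the filter for Sprr1b, Sprr2d, Sprr2h, Sprr2i and Sprr2j-ps applies to these counts as well.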

How the results depend on the processing

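Over the knockout contrasts, 1027 of 1046 alternative values for single Sprr genes stayed on their side of the threshold, 7 lost the call and 12 gained one. The sign changed in 49 values, 0 of which were called in either fit. In large intestine the count of 3 called Sprr genes was 0 with only the arrays compared, and ranged from 1 to 4 with 1 array left out. In bladder E15 the count of 0 became 1 with only the arrays compared. In bladder E19 it became 1 with array weights, 2 with only the arrays compared and 1 with the replicate number as a block. The deviations of same-numbered arrays correlated between genotypes at −0.127 to 0.275 over the 7 tissues and stages, so the numbers were not taken as pairing. With the replicate block Sprr2a in bladder E15 (adjusted p = 0.00321) and Sprr2f in bladder E19 (adjusted p = 0.0243) were called. Crossed numbers in small intestine, an alternative chosen after seeing the data, gave 0 Sprr calls. In the simulated large intestine contrast 10 of 50 changes of 0.5, 41 of 50 of 1 and 50 of 50 of 2 were called. The simulation used normal noise with each gene's spread over all groups. It also held more changed genes than were called in the data, which eases calling. In the measured contrast Lce1a1 at 1.66 and Dmkn at 1.41 were not called (limma adjusted p = 0.0966 and 0.97). Changes under 1 are therefore easily missed with 2 arrays a group, and larger ones can be missed too.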
